A study of Homo sapiens with 24 samples.

Results

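The 9 genes described here encode the enzymes of glycogen synthesis and breakdown, with a pair of the subunits that steer them. They were taken by symbol from a table of 22446 gene symbols: the glycogen-targeting subunits PPP1R3C and PPP1R3B, the synthesis enzymes GBE1, GYS1 and GYG1, the sugar phosphate enzymes UGP2 and PGM1, and the phosphorylases PYGL and PYGB. Each symbol occurred once and had at least 1 RPKM in all 12 libraries, so all 9 were among the 11933 genes tested. RPKM is the number of reads per kilobase of transcript, scaled to the size of the library, so levels of different genes can be set side by side.

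A2780 is an established epithelial ovarian cancer cell line. RNA depleted of ribosomal RNA was sequenced from 12 libraries in 6 groups of 2: cells kept in a chamber at 1% O2 (hypoxia) for 6 hr (libraries 3 and 4), 48 hr (libraries 7 and 8) or 6 days (libraries 11 and 12), and cells at normal oxygen (normoxia) for 6 hr (libraries 1 and 2), 48 hr (libraries 5 and 6) or 6 days (libraries 9 and 10). All groups share the line, with no genetic change or drug named in the labels, and RPMI medium with serum. Nothing in the labels tells whether both libraries of a group were grown apart. The p-values therefore measure how far libraries vary, which may be technical. In such bulk samples, fewer cells that express a gene and less of its RNA per cell cannot be told apart.

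Glycogen is a branched polymer of glucose that cells lay down when glucose is plentiful and break down when it is needed. PGM1 turns glucose 6-phosphate into glucose 1-phosphate, UGP2 activates it to UDP-glucose, glycogenin (GYG1) starts the chain on itself, glycogen synthase (GYS1) lengthens it and GBE1 adds the branches. The phosphorylases (PYGL in liver, PYGB in brain and many other tissues) release glucose 1-phosphate from it, and the PPP1R3 proteins bring protein phosphatase 1 to glycogen, where it switches the synthase on and phosphorylase off. Several of these genes are known as targets of the hypoxia-inducible factors (HIF) in cancer cells, which accumulate glycogen at low oxygen.

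HIF binds the cores ACGTG and GCGTG of hypoxia response elements. The promoter windows of the 3 synthesis-side genes with the highest folds in hypoxia at 6 days, PPP1R3C, GBE1 and GYS1, are shown beside that of GYG1, which was lower in hypoxia. Each runs 5′ to 3′ on the strand of the gene from 250 bases before to 50 after the RefSeq start, in build GRCh38.p14, and capitals mark the cores, with CACGT and CACGC being the cores read on the other strand.
PPP1R3C (chr10:91633022-91633321, minus strand): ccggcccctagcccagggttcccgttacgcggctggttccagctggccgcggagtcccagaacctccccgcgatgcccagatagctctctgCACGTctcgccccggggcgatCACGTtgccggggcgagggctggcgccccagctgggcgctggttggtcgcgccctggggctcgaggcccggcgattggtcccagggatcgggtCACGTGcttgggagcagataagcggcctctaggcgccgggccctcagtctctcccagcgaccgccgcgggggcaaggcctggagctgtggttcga
GBE1 (chr3:81761596-81761895, minus strand): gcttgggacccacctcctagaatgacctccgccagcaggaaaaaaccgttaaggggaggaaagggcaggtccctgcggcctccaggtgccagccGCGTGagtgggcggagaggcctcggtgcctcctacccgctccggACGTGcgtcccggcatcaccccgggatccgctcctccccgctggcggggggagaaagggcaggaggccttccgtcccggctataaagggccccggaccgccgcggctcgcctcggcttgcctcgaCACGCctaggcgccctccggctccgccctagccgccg
GYS1 (chr19:48993260-48993559, minus strand): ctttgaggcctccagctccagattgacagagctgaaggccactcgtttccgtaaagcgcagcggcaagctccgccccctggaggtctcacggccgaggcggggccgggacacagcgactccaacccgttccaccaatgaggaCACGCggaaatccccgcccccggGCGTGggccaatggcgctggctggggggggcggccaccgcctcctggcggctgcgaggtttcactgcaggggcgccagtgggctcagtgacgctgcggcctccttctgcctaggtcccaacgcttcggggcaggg
GYG1 (chr3:148991290-148991589, plus strand): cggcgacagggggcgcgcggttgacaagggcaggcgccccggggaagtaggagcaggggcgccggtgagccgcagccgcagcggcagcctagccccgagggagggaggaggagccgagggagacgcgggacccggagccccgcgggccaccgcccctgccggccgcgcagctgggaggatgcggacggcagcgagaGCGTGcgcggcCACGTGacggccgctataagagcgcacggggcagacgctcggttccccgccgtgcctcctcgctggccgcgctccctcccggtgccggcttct

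The PPP1R3C window held 4 matches to ACGTG, of which a pair overlap as the palindrome CACGTG, whose ACGTG lies at -45 on the opposite strand and at -44 on the strand of the gene, counted from the start. The GBE1 window held ACGTG at -112 and GCGTG at -156 and, on the opposite strand, at 14. The GYS1 window held GCGTG at -85 and, on the opposite strand, at -108. The GYG1 window also held a CACGTG palindrome, with ACGTG at -43 and -42, and GCGTG at -54. Cores thus occurred both in genes that were higher and in the gene that was lower in hypoxia.

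RefSeq windows matched 8 of the 9 genes, all but PPP1R3B, and gave 11 windows, since UGP2 and PGM1 have several starts. The PYGB window held 3 GCGTG and the PYGL window neither core. UGP2 had 1 ACGTG and 1 GCGTG at start 1 and 1 GCGTG at start 2. PGM1 had 1 ACGTG and 2 GCGTG at start 2 and neither core at starts 1 and 3. Of 35116 windows of the same length, 48.4% held at least 1 of the cores on either strand (ACGTG 21.4%, GCGTG 36.5%), 23.1% held at least 2 matches and 4.4% at least 4. These are letter matches, not measured sites.

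**Figure D1:**
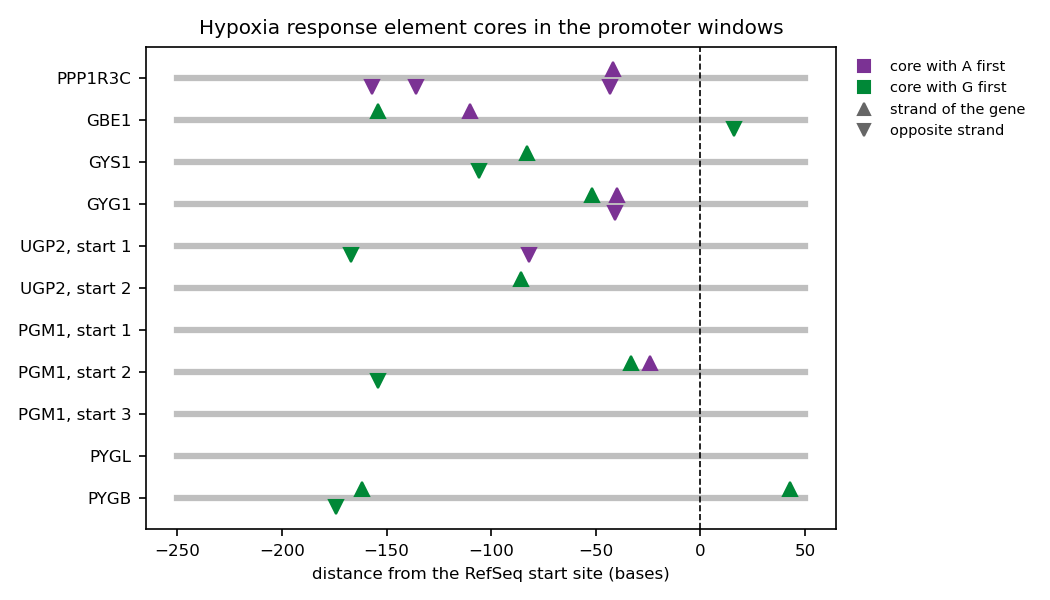
Positions of the hypoxia response element cores (horizontal axis, bases from the RefSeq start site) in the promoter windows of 8 glycogen genes, 1 grey bar per start. Purple marks stand for ACGTG and green for GCGTG, upward for the strand of the gene and downward for the opposite strand; PPP1R3C has 4 matches and PYGL none.

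Gene-level values were as deposited, with totals of 25.1 to 51.7 M reads per library implied by the steps of the precursor miRNA values of the same libraries. Libraries of a group correlated at r = 0.989 to 0.995 over the tested genes, and the median absolute log2 difference between them was 0.20 for normoxia at 6 hr and 0.09 to 0.13 for the other groups. The hypoxia index genes PFKFB4, BNIP3 and SLC2A1 were called higher in hypoxia at each time, and CA9 at 48 hr and 6 days. CA9 had 3.13 to 8.57 RPKM in hypoxia at those times and at most 0.0638 RPKM in normoxia. It was thus tested only through the groups where it was high. Of the epithelial and ovarian markers, EPCAM (33.2 to 42.2 RPKM) and KRT18 (23.7 to 38.2 RPKM) were present. KRT8 and MUC1 were at most 2.27 RPKM, and KRT7, KRT19, CDH1, PAX8, WT1 and MUC16 were at or near 0. EPCAM and KRT18 therefore bear only on the epithelial part of the label, and KRT7, KRT19 and CDH1 did not go with that part. The ovarian part was taken as given and was not shown by PAX8, WT1 or MUC16. Of the fibroblast markers, DCN, LUM and THY1 were present in every library. The identity of the line was not tested. Leukocyte, endothelial and hepatocyte markers summed to at most 1.05 RPKM in any library.

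Differences were tested with limma on log2(RPKM + 0.5) over all tested genes, a gene being called at an adjusted p under 0.05 (Benjamini-Hochberg), and folds are on that scale. At 6 hr, 4 of the 9 genes rose in hypoxia (PPP1R3C, PPP1R3B, GYS1 and PYGL), against 3.39% of all tested genes. None fell, against 0.201% of all tested genes, and none was lower at an unadjusted p under 0.05 in limma either. At 48 hr, 6 rose (these 4 with GBE1 and PGM1), against 9.24% of all tested genes, and GYG1 fell, against 2.89%. At 6 days, 7 rose (with UGP2), against 23.9%, and GYG1 fell, against 18.3%. The median log2 difference over the 9 genes was 0.49, 0.96 and 0.92 at 6 hr, 48 hr and 6 days, beside 0.04, 0.01 and 0.04 over all tested genes. The share of called genes that were higher depended on scaling: 94.4% of 428 at 6 hr, 76.2% of 1448 at 48 hr and 56.6% of 5039 at 6 days as deposited, but 76.1, 57.9 and 45.3% after quantile normalization and 76.6, 56.4 and 49.6% after centring on the trimmed mean. Neither scaling turned the direction of any of the 9 genes in hypoxia at any of the 3 times.

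**Figure D2:**
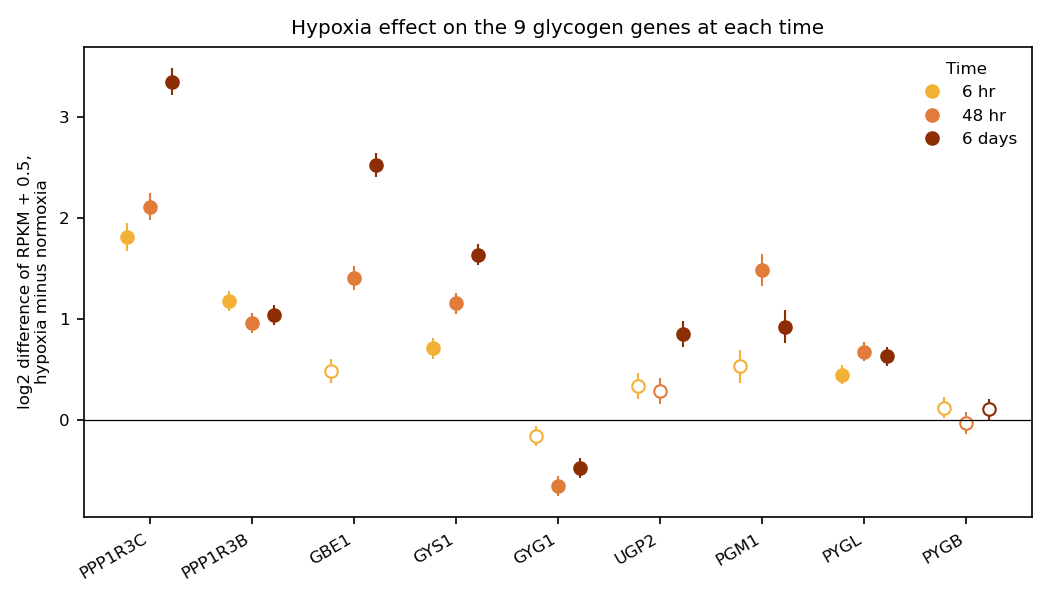
Hypoxia minus normoxia differences of log2(RPKM + 0.5) (vertical axis) for the 9 glycogen genes at 6 hr, 48 hr and 6 days, with standard errors as bars. Filled points were called by limma at an adjusted p under 0.05; PPP1R3C reaches 3.34 at 6 days, GYG1 lies below 0 at each time and PYGB near 0.

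PPP1R3C, also known as PTG (protein targeting to glycogen), had the largest differences of the 9 genes at each time. It had 9.06 and 7.94 RPKM in hypoxia at 6 hr, against 2.04 and 2.08 RPKM in normoxia. At 48 hr the values were 9.61 and 8.26 RPKM in hypoxia and 1.89 and 1.49 RPKM in normoxia. At 6 days they were 36.9 and 33.9 RPKM in hypoxia and 2.63 and 3.47 RPKM in normoxia. Every hypoxia library lay above every normoxia library, the 6 hr and 48 hr hypoxia libraries overlapped, and the 6 day hypoxia libraries stood apart from both. PPP1R3C rose 3.51-fold at 6 hr (log2 1.81 ± 0.13 SE, limma adjusted p = 1.51e-05), 4.32-fold at 48 hr (log2 2.11, adjusted p = 1.67e-06) and 10.2-fold at 6 days (log2 3.34, adjusted p = 4.37e-08).

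PPP1R3B encodes the targeting subunit best known from liver. It had 4.17 and 3.81 RPKM in hypoxia at 6 hr and 1.58 and 1.40 RPKM in normoxia at 6 hr. The levels were 3.44 and 3.31 RPKM in hypoxia at 48 hr, against 1.46 and 1.52 RPKM in normoxia. At 6 days they were 7.04 and 7.77 RPKM in hypoxia, against 3.52 and 3.17 RPKM in normoxia. The groups did not overlap at any time, yet the normoxia libraries at 6 days overlapped the hypoxia libraries at 48 hr. PPP1R3B rose by close to the same factor at each time, 2.26-fold, 1.95-fold and 2.05-fold at 6 hr, 48 hr and 6 days (limma adjusted p = 3.33e-05, 6.71e-05 and 1.53e-05). Neither change of the effect between successive times was called (adjusted p = 0.622 from 6 hr to 48 hr and 0.757 from 48 hr to 6 days).

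Among all 7 PPP1R3 subunits of the table (PPP1R3A to PPP1R3G), PPP1R3C made up 51.4% ± 0.858 of the summed RPKM in hypoxia and 30.2% ± 1.26 in normoxia at 6 hr (SD, n = 2 each). At 48 hr its share was 53.3% ± 2.53 in hypoxia and 26.0% ± 4.85 in normoxia. At 6 days it was 71.9% ± 2.10 in hypoxia and 30.8% ± 4.19 in normoxia. The shares did not overlap at any time; they were chosen after the levels were known and were not tested.

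GYS1, the glycogen synthase of muscle and most other tissues, had 17.3 and 14.9 RPKM in hypoxia and 9.97 and 9.28 RPKM in normoxia at 6 hr. At 48 hr it had 25.7 and 24.2 RPKM in hypoxia, against 10.3 and 11.5 RPKM in normoxia. The 6 day levels were 22.7 and 24.0 RPKM in hypoxia, against 6.69 and 7.68 RPKM in normoxia. All hypoxia libraries lay above all normoxia libraries, with the highest group mean in hypoxia at 48 hr (24.9 ± 1.06 RPKM, SD, n = 2) and the lowest in normoxia at 6 days (7.18 ± 0.704 RPKM, SD, n = 2). GYS1 rose 1.64-fold at 6 hr (log2 0.71 ± 0.10 SE, limma adjusted p = 0.0025), 2.23-fold at 48 hr (adjusted p = 2.71e-05) and 3.11-fold at 6 days (adjusted p = 8.72e-07).

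GBE1, the branching enzyme, had 12.7 and 13.7 RPKM in hypoxia and 10.6 and 8.12 RPKM in normoxia at 6 hr. At 48 hr it had 25.4 and 21.5 RPKM in hypoxia, against 8.34 and 8.70 RPKM in normoxia. By 6 days it stood at 29.8 and 30.1 RPKM in hypoxia, against 4.98 and 4.61 RPKM in normoxia. The groups did not overlap at any time, and the gap widened on both sides, with the highest levels in hypoxia and the lowest in normoxia both at 6 days. At 6 hr the difference of 0.49 (log2) missed the threshold (limma adjusted p = 0.0526, 0.00753 without normoxia library 1, 0.00753 to 0.218 over the alternatives). GBE1 rose 2.65-fold at 48 hr (adjusted p = 1.99e-05) and 5.75-fold at 6 days (log2 2.52 ± 0.12 SE, adjusted p = 1.09e-07).

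GYG1, which primes new chains, went the other way. It had 16.2 and 15.9 RPKM in hypoxia and 17.9 and 18.0 RPKM in normoxia at 6 hr, a log2 difference of -0.16 that was not called (limma adjusted p = 0.47). At 48 hr it had 11.3 and 12.3 RPKM in hypoxia and 17.0 and 20.7 RPKM in normoxia. The levels at 6 days were 10.3 and 10.5 RPKM in hypoxia and 14.1 and 15.3 RPKM in normoxia. The hypoxia libraries were below the normoxia libraries of the same time throughout. GYG1 fell in hypoxia, being 1.56-fold lower at 48 hr (log2 -0.65 ± 0.10 SE, limma adjusted p = 0.0014) and 1.39-fold lower at 6 days (adjusted p = 0.00292). GYG1 overlaps HLTF, and whether counting used the strand is not given in the sources used here. HLTF had 15.3 to 31.8 RPKM over the libraries, against 10.3 to 20.7 RPKM for GYG1. HLTF had a log2 difference of -0.15 at 48 hr, which was not called (limma adjusted p = 0.379), and fell by 0.34 at 6 days (adjusted p = 0.0172). The part of HLTF reads in the GYG1 values was not tested.

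UGP2, which makes UDP-glucose, had 21.2 and 22.2 RPKM in hypoxia, against 19.2 and 15.3 RPKM in normoxia at 6 hr, and 26.0 and 22.0 RPKM in hypoxia, against 19.9 and 19.0 RPKM in normoxia at 48 hr. The 6 day libraries had 35.9 and 31.4 RPKM in hypoxia, against 19.7 and 17.1 RPKM in normoxia. The libraries did not overlap at any time, but only the 6 day difference was called, when UGP2 rose 1.81-fold (log2 0.85 ± 0.13 SE, limma adjusted p = 0.000391). The log2 differences were 0.33 at 6 hr (adjusted p = 0.208, and 0.0484 without normoxia library 1, 0.0484 to 0.554 over the alternatives) and 0.29 at 48 hr (adjusted p = 0.169).

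PGM1 had 8.52 and 9.11 RPKM in hypoxia, against 4.86 and 7.25 RPKM in normoxia at 6 hr. At 48 hr it had 13.4 and 14.3 RPKM in hypoxia, against 4.41 and 4.83 RPKM in normoxia. For 6 days the values were 13.6 and 17.4 RPKM in hypoxia, against 8.19 and 7.54 RPKM in normoxia. The hypoxia libraries were higher at each time, and its largest difference came at 48 hr rather than 6 days. The change of the effect between these times was not called (limma adjusted p = 0.129). From 48 hr to 6 days the mean rose from 13.9 to 15.5 RPKM in hypoxia and from 4.62 to 7.87 RPKM in normoxia. PGM1 rose 2.81-fold at 48 hr (log2 1.49 ± 0.16 SE, limma adjusted p = 0.000106) and 1.90-fold at 6 days (adjusted p = 0.000969). The 6 hr difference of 0.53 (log2) was not called (adjusted p = 0.105, and 0.0129 without normoxia library 2, 0.0129 to 0.295 over the alternatives).

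PYGL, the phosphorylase best known from liver, had the highest level of the 9 genes in every library. At 6 hr it had 31.1 and 28.5 RPKM in hypoxia and 23.2 and 20.3 RPKM in normoxia. At 48 hr it had 37.8 and 36.9 RPKM in hypoxia and 22.2 and 24.2 RPKM in normoxia. In the 6 day libraries it reached 53.5 and 53.1 RPKM in hypoxia and 34.8 and 33.5 RPKM in normoxia. The groups of the same time did not overlap, while normoxia at 6 days lay above hypoxia at 6 hr. PYGL rose 1.36-fold at 6 hr (log2 0.45 ± 0.09 SE, limma adjusted p = 0.0229), 1.60-fold at 48 hr (adjusted p = 0.000691) and 1.55-fold at 6 days (adjusted p = 0.000374). The 6 hr call was lost without normoxia library 2 (adjusted p = 0.0752), without hypoxia library 3 (0.189) and with the 6 hr groups compared alone (0.29), over a range of 0.00951 to 0.29.

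PYGB, the phosphorylase best known from brain, was not called at any time in hypoxia. Its libraries ran from 6.38 to 10.1 RPKM, and hypoxia and normoxia overlapped at 6 hr (8.64 and 7.22 RPKM in hypoxia, 6.71 and 7.73 RPKM in normoxia) and at 48 hr (9.23 and 9.75 RPKM in hypoxia, 10.1 and 9.32 RPKM in normoxia). At 6 days it had 7.01 and 7.39 RPKM in hypoxia and 6.94 and 6.38 RPKM in normoxia, which did not overlap. The log2 differences were 0.13, -0.03 and 0.11 at 6 hr, 48 hr and 6 days (limma adjusted p = 0.607, 0.902 and 0.451, SE 0.11 each). PYGB overlaps ABHD12, which had at most 6.06 RPKM, and rose by 0.41 (log2) in hypoxia at 6 days (limma adjusted p = 0.00684); its part in the PYGB values was not tested.

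Among the phosphorylases (PYGL, PYGB and the muscle form PYGM, which stayed at or below 0.189 RPKM), PYGL made up 78.8% ± 1.14 of the RPKM in hypoxia and 74.8% ± 3.60 in normoxia at 6 hr (SD, n = 2 each). It made up 79.6% ± 0.931 in hypoxia and 70.3% ± 2.36 in normoxia at 48 hr. At 6 days it made up 87.9% ± 0.488 in hypoxia and 83.6% ± 0.409 in normoxia. The hypoxia libraries had the higher share of the same time throughout, by little at 6 hr (78.0 and 79.6% in hypoxia, 77.3 and 72.2% in normoxia). The ratio of GYS1 to PYGL RPKM, chosen after the levels were seen, was 0.557 and 0.521 in hypoxia and 0.430 and 0.457 in normoxia at 6 hr, and 0.679 and 0.654 in hypoxia and 0.465 and 0.474 in normoxia at 48 hr. At 6 days it was 0.424 and 0.452 in hypoxia and 0.192 and 0.229 in normoxia. Synthase transcripts were thus higher relative to PYGL in hypoxia at each time, and the 6 day hypoxia values overlapped the 6 hr normoxia values. None of these shares and ratios was tested.

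**Figure D3:**
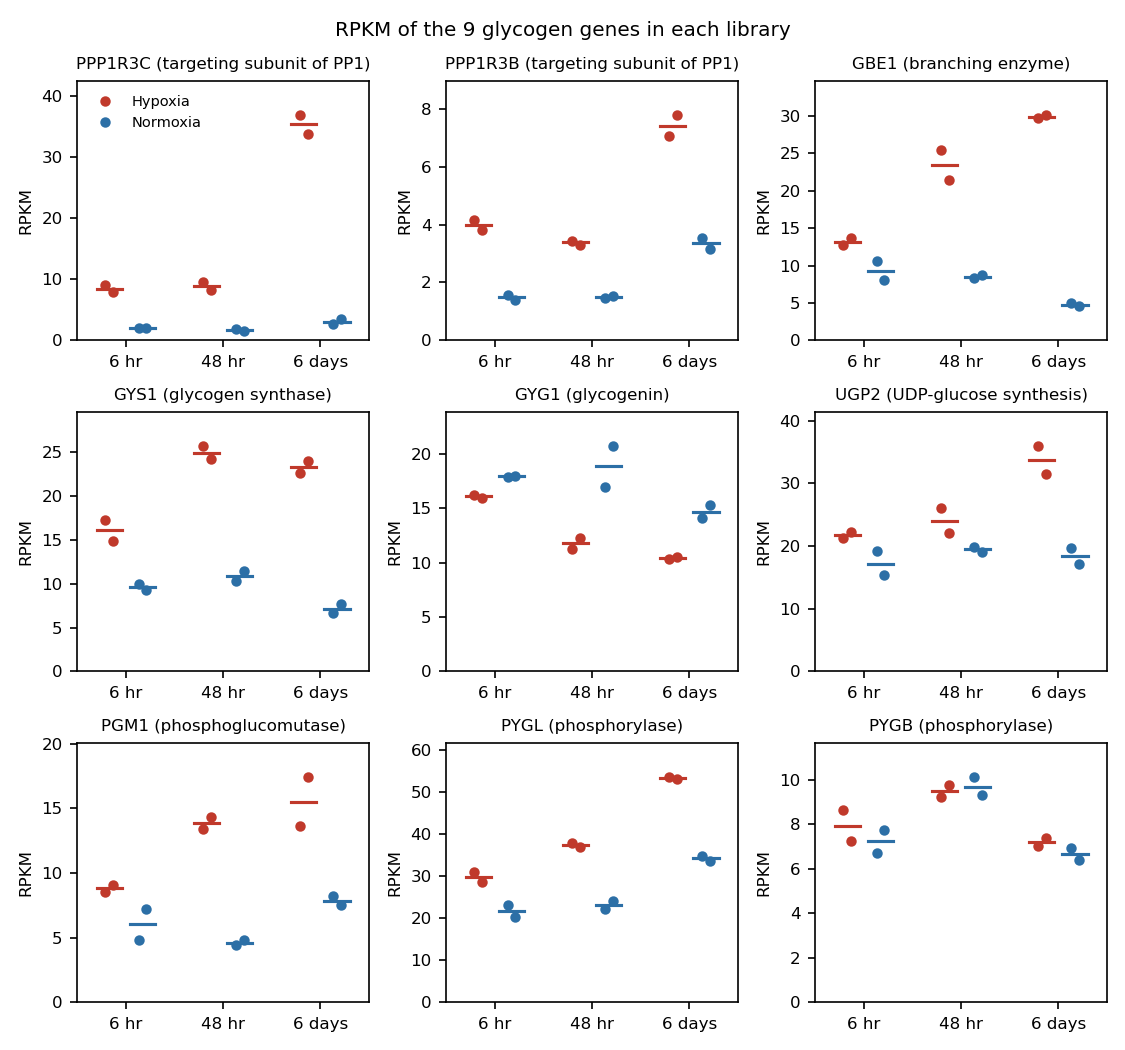
RPKM (vertical axis, linear from 0, a scale of its own per gene) of the 9 glycogen genes in each of the 12 libraries by time, hypoxia in red and normoxia in blue. Points are libraries and lines the means of 2; PPP1R3C stands out in hypoxia at 6 days (36.9 and 33.9 RPKM) and GYG1 is lower in hypoxia.

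**Figure D4:**
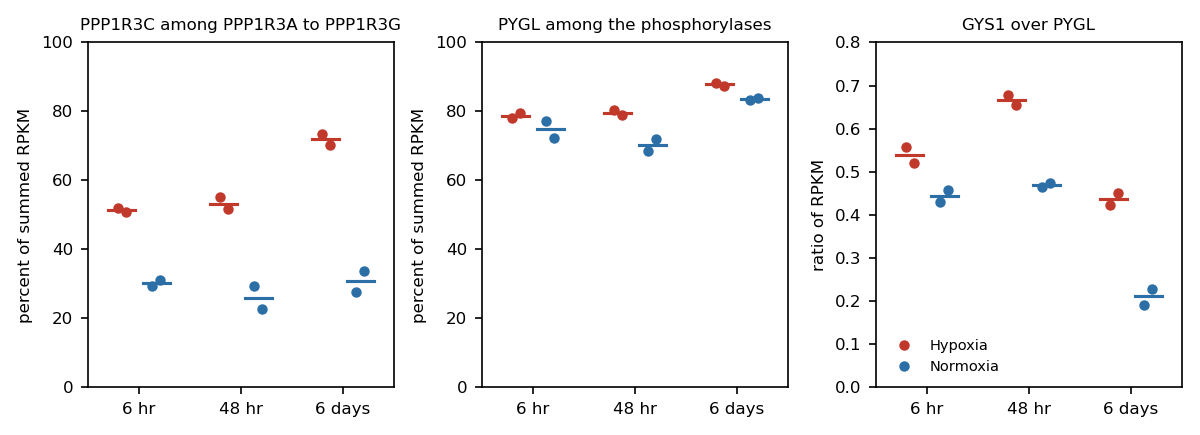
PPP1R3C as a percent of the summed RPKM of PPP1R3A to PPP1R3G, PYGL as a percent of the phosphorylases, and the ratio of GYS1 to PYGL RPKM (vertical axes) in each library by time, hypoxia in red and normoxia in blue. Points are libraries and lines the means of 2; in each panel the hypoxia libraries lie above the normoxia libraries of the same time.

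Library 4 (hypoxia, 6 hr) stood apart in collagen, with COL1A2 at 3.06 RPKM (at most 0.125 in the other 11 libraries) and COL1A1 at 2.5 RPKM (at most 0.785). Its hepatocyte markers had the lowest sum of any library (0.0875 RPKM). This library also had the highest endothelial sum (0.306 RPKM, at most 0.0866 elsewhere) and leukocyte sum (1.05 RPKM, at most 0.791 elsewhere). Without it the same 4 genes were higher at 6 hr: PPP1R3C by 1.90, PPP1R3B by 1.23, GYS1 by 0.82 and PYGL by 0.51 (log2, limma adjusted p = 0.000203, 0.000513, 0.0056 and 0.0451). The 6 fibroblast markers summed to 32.9 and 34.5 RPKM in hypoxia and 33.4 and 28.4 RPKM in normoxia at 6 hr, 41.3 and 38.3 RPKM in hypoxia and 25.1 and 27.7 RPKM in normoxia at 48 hr, and 45.2 and 41.7 RPKM in hypoxia and 31.6 and 32.9 RPKM in normoxia at 6 days. Of the 6, DCN and LUM were called higher in hypoxia at 48 hr and 6 days. THY1, the only other one tested, had log2 differences of -0.01 at 48 hr and -0.17 at 6 days, which were not called, and PDGFRB was at most 0.153 RPKM in any library. The 3 skeletal muscle markers summed to 0.84 and 0.815 RPKM in hypoxia and 0.483 and 0.517 RPKM in normoxia at 6 hr, 2.06 and 1.89 RPKM in hypoxia and 0.603 and 0.523 RPKM in normoxia at 48 hr, and 4.52 and 4.98 RPKM in hypoxia and 1.08 and 1.17 RPKM in normoxia at 6 days. Of the 3, ACTN3 was tested and called higher in hypoxia at 48 hr (log2 1.37, limma adjusted p = 1.76e-05) and 6 days (log2 1.84), with CKM at most 0.22 RPKM and MYH2 at most 0.0386 RPKM. The part of these markers in the glycogen gene results was not tested.

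Whether the hypoxia effect differed between times was tested by contrasts of the effects in the same limma fit. These contrasts share libraries with the comparisons above. From 6 hr to 48 hr the effect on GBE1 increased by 0.91 (log2, adjusted p = 0.0466), against 0.511% of tested genes with an increase. No gene of the 9 had a called decrease, against 0.0168% of tested genes, and 1 (GYG1) was lower at an unadjusted p under 0.05 in limma. The GBE1 call was lost under 13 of 19 alternatives, with adjusted p from 0.0103 to 0.243. PGM1 had a difference of 0.96, which was not called (adjusted p = 0.122, 0.0189 without normoxia library 1, 0.0189 to 0.35 over the alternatives).

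From 48 hr to 6 days the effect increased for PPP1R3C by 1.23 and for GBE1 by 1.12 (log2, limma adjusted p = 0.0043 each), against 5.38% of tested genes with an increase. No decrease was called among the 9, against 5.31% of tested genes, and 1 (PGM1) was lower at an unadjusted p under 0.05 in limma. The differences for GYS1 (0.48, adjusted p = 0.0613), UGP2 (0.56, adjusted p = 0.0684) and PGM1 (-0.56, adjusted p = 0.129) missed the threshold. With the 4 groups of these times compared alone, they were called (adjusted p = 0.0304, 0.0329 and 0.0391), over ranges of 0.0138 to 0.2 for GYS1, 0.0301 to 0.245 for UGP2 and 0.0361 to 0.359 for PGM1.

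Part of a widening difference can lie in normoxia, so normoxia was compared across times. At 48 hr against 6 hr none of the 9 genes was called in either direction by limma, against 0.0922% of tested genes; 1 (PYGB, log2 0.40) had an unadjusted p under 0.05. At 6 days against 6 hr in normoxia, 3 of the 9 rose, against 30.9% of tested genes, and 3 fell, against 25.9%, which is near the background. PPP1R3B rose by 0.95, PYGL by 0.64 and PPP1R3C by 0.46 (log2, adjusted p = 1.4e-05, 0.000165 and 0.0121). GBE1 fell by 0.88, GYS1 by 0.40 and GYG1 by 0.28 (adjusted p = 0.00011, 0.00694 and 0.0302). PGM1 was not called against 6 hr, with -0.33 at 48 hr (log2, limma adjusted p = 0.327) and 0.38 at 6 days (adjusted p = 0.0643). With a library left out, its difference ran from -0.599 to -0.066 at 48 hr and from 0.11 to 0.642 at 6 days. The PPP1R3C call was lost without normoxia library 10 (adjusted p = 0.129, range 0.00586 to 0.129), the GYS1 call without normoxia library 9 (0.0728, range 0.00155 to 0.0728), and the GYG1 call under 6 of 19 alternatives (range 0.0164 to 0.169).

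Over the 12 libraries, which share the 6 groups, the genes fell into patterns that are given as Pearson's r of log2(RPKM + 0.5), as a description. GBE1 and GYS1 followed each other (r = 0.96), as did PPP1R3C and PPP1R3B (0.93) and PPP1R3B and PYGL (0.94). GYG1 ran opposite to PYGL (-0.93) and PGM1 (-0.91), and PYGB followed none of them (-0.30 to 0.37). Of the other tested genes, the most like PPP1R3C were ISM2 (0.989), KDM3A (0.987), a histone demethylase, and WDR66 (0.986). Those most like GYS1 were the glycolytic enzyme TPI1 (0.991), PLOD1 (0.989), a collagen lysyl hydroxylase, and AVPI1 (0.987). Those most like PPP1R3B were ZNF292 (0.987), JARID2 and TBC1D8B (0.979 each), those most like GBE1 were GZF1, RAB11FIP5 (0.973 each) and SEC61G (0.972), and those most like PGM1 were HSPG2 (0.964), FOXD1 (0.952) and BNIP3L (0.951). GYG1, PYGL, PYGB and UGP2 varied by an SD of 0.22 to 0.45 (log2) over the libraries and were not matched.

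The rest of the pathway was read from a list of 41 other genes, of which 30 were tested and 11 were below the minimum. In hypoxia 3 rose and none fell at 6 hr (1 lower at an unadjusted p under 0.05 in limma), 3 rose and 1 fell at 48 hr, and 5 rose and 7 fell at 6 days. The shares of all tested genes were 3.39% higher and 0.201% lower at 6 hr, 9.24% and 2.89% at 48 hr, and 23.9% and 18.3% at 6 days, so the 48 hr and 6 day counts were near the background. The medians of their log2 differences were 0.02, 0.06 and 0.02. The isoforms of liver and muscle GYS2, PPP1R3A and the glucose 6-phosphatase G6PC were at most 0.0381 RPKM in any library.

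STBD1, a glycogen-binding protein linked to the delivery of glycogen to lysosomes, had 7.67 and 6.99 RPKM in hypoxia at 6 hr, against 2.28 and 1.73 RPKM in normoxia. At 48 hr it had 6.71 and 5.91 RPKM in hypoxia, against 2.24 and 2.08 RPKM in normoxia, and at 6 days 9.56 and 9.15 RPKM in hypoxia, against 1.95 and 1.94 RPKM in normoxia. The groups did not overlap at any time. STBD1 rose 3.14-fold, 2.56-fold and 4.03-fold (limma adjusted p = 9.45e-06, 1.68e-05 and 3.54e-07). Its span is shared with the read-through gene FAM47E-STBD1, and how reads were split is not given in the sources used here.

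PPP1R3E, another targeting subunit, had 2.78 and 2.93 RPKM in hypoxia and 1.12 and 1.05 RPKM in normoxia at 6 days. It rose 1.47-fold, 1.80-fold and 2.11-fold at 6 hr, 48 hr and 6 days (limma adjusted p = 0.0174, 0.000449 and 2.93e-05). Its 6 hr call was lost under 5 of 19 alternatives. GAA, the lysosomal enzyme that digests glycogen, rose 1.46-fold at 6 hr (adjusted p = 0.033) and 1.58-fold at 48 hr (adjusted p = 0.00506), and was 1.24-fold higher at 6 days without being called (adjusted p = 0.0672); its 6 hr call was lost under 12 of 19 alternatives. PPP1R3G, a targeting subunit below the minimum for testing and chosen after its values were seen, had 0.903 and 0.824 RPKM in hypoxia and 0.135 and 0.0951 RPKM in normoxia at 6 days.

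Of the other genes called at 6 days, those that rose were the phosphomutases PGM2 (1.63-fold) and PGM2L1 (1.93-fold) and PRKAB2 (1.47-fold), a subunit of the AMP-activated kinase (limma adjusted p = 0.000461, 0.000235 and 0.000668). PGM2L1 had 1.57 and 1.53 RPKM in hypoxia at 6 days, against 0.481 and 0.653 RPKM in normoxia. It reached 1 RPKM in no other group, so it was tested only through the group where it was high. GALT, an enzyme of galactose use, fell 2.03-fold (adjusted p = 0.000438). UGGT1, an endoplasmic reticulum enzyme that uses UDP-glucose, fell 1.37-fold and SLC37A4, the transporter of glucose 6-phosphate, 1.42-fold (adjusted p = 0.00113 and 0.0127). The phosphorylase kinase subunits PHKB and PHKA2 fell 1.44-fold and 1.25-fold, the phosphatase subunit PPP1CA 1.25-fold and the kinase subunit PRKAG2 1.19-fold (adjusted p = 0.00566, 0.0222, 0.0166 and 0.0461). At 48 hr PPP1CC, another catalytic subunit of the phosphatase, fell 1.37-fold (adjusted p = 0.0414). The calls of PPP1CC, PPP1CA, PHKB, PHKA2, PRKAG2 and SLC37A4 were each lost when at least 1 library was left out.

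**Figure D5:**
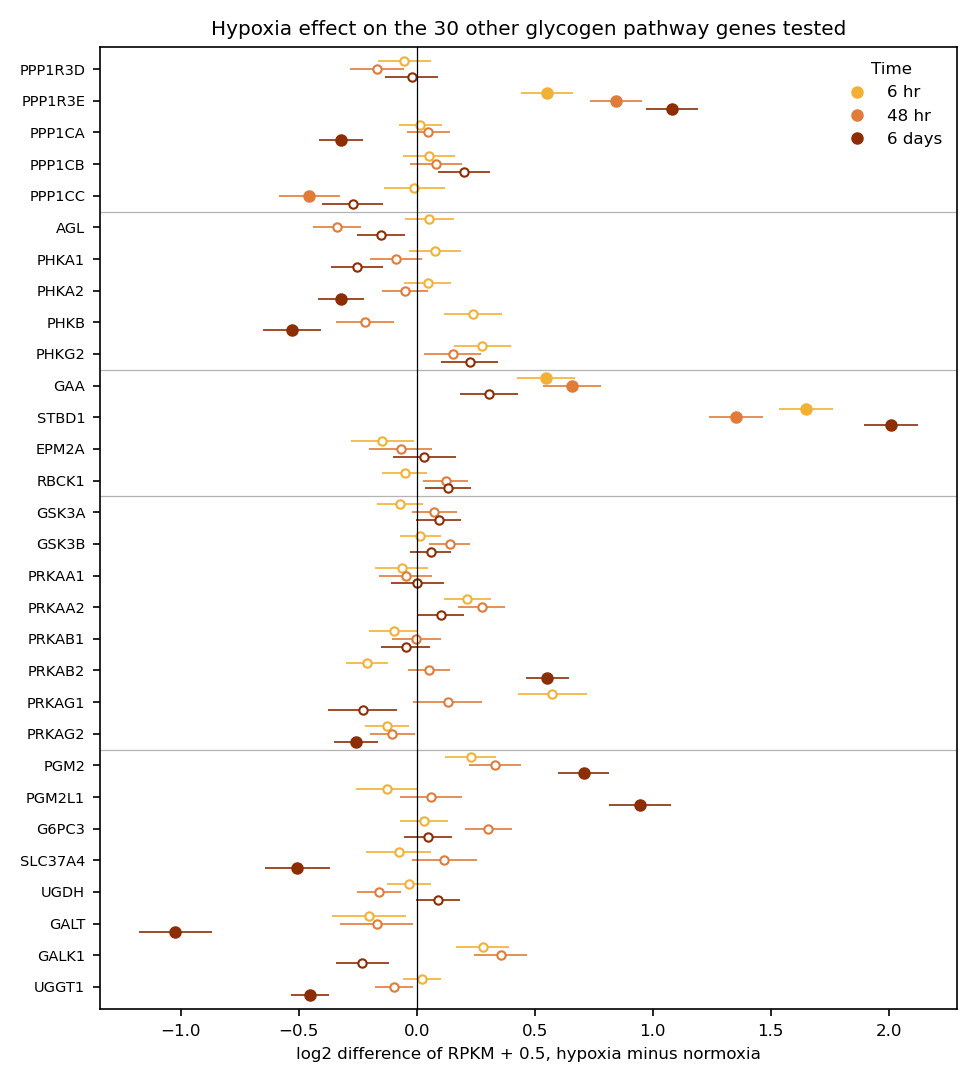
Hypoxia minus normoxia differences of log2(RPKM + 0.5) (horizontal axis) for the 30 other glycogen pathway genes tested, with standard errors as bars, at 6 hr, 48 hr and 6 days. Filled points were called by limma at an adjusted p under 0.05, and lines part the lists; STBD1 reaches 2.01 at 6 days and GALT -1.02.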

How the data were processed

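RNA of the 12 libraries was depleted with Ribominus, made into libraries with a SOLiD whole-transcriptome kit and read on a 5500xl sequencer, per the labels' protocols. The authors deposited RPKM, by gene symbol in a first table and by precursor miRNA in a second. The submitters' processing notes name Partek 6.6 and hg19; for the aligner, transcript models, strand use and RPKM denominator nothing is given in the sources used here. Read totals were inferred from the steps of low precursor values, with 96.5 to 99.3% of values within 0.05 reads of a whole number (707 precursors of known length, values up to 20 reads). In each library 135 to 176 values entered. The totals were chosen for a high share of such values, so this share is no check on them. As the gene table holds no counts, neither a count model nor intervals for counting error could be had from it.

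The 11933 genes that reached 1 RPKM in 2 or more libraries were tested with limma 3.58.1 (R 4.3.3). Values were log2(RPKM + 0.5), a pseudocount that lowers the folds of low genes. The model had 6 group means and an empirical Bayes trend on level, tests were two-sided, and p was adjusted in each comparison by Benjamini-Hochberg. There were 6 residual degrees of freedom and 5.08 from the prior. Comparisons of a time share normoxia libraries with the contrasts between times and with the comparisons within normoxia.

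All 9 genes are named with values, as is each gene of the 5 pathway lists past the threshold in hypoxia, and the 3 most alike genes of each of the 9 with an SD of at least 0.5 (log2). The genes, lists and rules were chosen with earlier results of these data known, and 1 gene of the pathway lists is not reported here. The alternatives were other pseudocounts (0.1 and 1), no filter or a filter on the mean, quantile normalization, centring on the trimmed mean, groups compared alone, and each library left out. Where a library was left out, the lone library of its group was assumed to vary like the other groups. Promoter sequences came from RefSeq (GRCh38.p14), and matplotlib 3.10.9 (Python 3.11.15) made the figures.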

Additional observations from a re-analysis of the deposited data

Results flagged for a closer look

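The hypoxia effect differed between times for a pair of the 9 genes, by limma's test of the difference itself. For GBE1 it was higher by 0.91 (log2) at 48 hr than at 6 hr (adjusted p = 0.0466) and by 1.12 at 6 days than at 48 hr (adjusted p = 0.0043). For PPP1R3C it was higher by 1.23 at 6 days than at 48 hr (adjusted p = 0.0043). The GBE1 call for 48 hr against 6 hr was lost under 13 of 19 alternatives, and the other 6 day calls under none. All hypoxia libraries of both genes at the later time lay above those at the earlier time, except for PPP1R3C at 48 hr against 6 hr. Normoxia moved as well. From 48 hr to 6 days the GBE1 mean rose from 23.4 to 29.9 RPKM in hypoxia and fell from 8.52 to 4.80 RPKM in normoxia. The PPP1R3C mean rose from 8.94 to 35.4 RPKM in hypoxia and from 1.69 to 3.05 RPKM in normoxia. Normoxia at 6 days against 48 hr was not tested.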

How the results depend on the processing

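Over 1197 values of the 9 genes under 19 alternatives in 7 comparisons, 1132 kept their direction and their side of the threshold, 24 lost the call, 22 gained one and 19 changed sign, none of these called. Many of these values could not change direction. Another filter, groups compared alone, or leaving out a library of a group not compared cannot alter a log2 difference. Such alternatives can move only the adjusted p, so the tally overstates how far direction was put to a test. In hypoxia against normoxia, no gene changed side at 48 hr or 6 days; 3 calls were lost and 6 gained at 6 hr. The number of the 9 with a larger effect at 48 hr than at 6 hr was 1, but 0 with groups compared alone, without a filter or with a pseudocount of 0.1, and 0 to 2 with a library left out. Larger at 6 days than at 48 hr were 2, but 4 after centring, quantile normalization or with groups alone, and 2 to 4 with a library left out; smaller were 0, but 1 with groups alone and 0 to 1 with a library left out. In normoxia, 0 to 1 were lower at 48 hr (0 with all) and 1 to 3 lower at 6 days (3 with all) with a library left out.

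Sign changes in normoxia at 48 hr against 6 hr (log2) were PPP1R3B -0.083 (centring), -0.031 (quantile) and -0.064 to 0.068 with a library left out; GYG1 -0.022 (centring), -0.066 (quantile) and -0.074 to 0.198; PYGL -0.043 (quantile) and -0.002 to 0.187; and GBE1 -0.295 to 0.065. At 6 days, UGP2 ran from -0.063 to 0.258. PYGB in hypoxia at 48 hr ran from -0.080 to 0.025. For differences between times, UGP2 at 48 hr minus 6 hr was 0.013 (quantile) and -0.202 to 0.119, PYGL at 6 days minus 48 hr -0.107 to 0.018, and PPP1R3B at 6 days minus 48 hr -0.007 with a pseudocount of 0.1. The causes were not tested.

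Counts over all genes moved more. With 1 library left out, 181 to 836 genes were called at 6 hr (428 with all), 619 to 2066 at 48 hr (1448), 3423 to 5797 at 6 days (5039), 11 to 110 between 48 hr and 6 hr (63), 365 to 2154 between 6 days and 48 hr (1276), and 6 to 1310 in normoxia at 48 hr (11), the highest without library 1. Under the other alternatives 278 to 500, 1161 to 1977 and 4643 to 5984 were called at the 3 times, 31 to 95 and 1089 to 2479 between times. With 2 libraries a group, a difference that was not called is not shown to be absent. No paired analysis was possible because the groups compared share no library number.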
